A study of Saccharomyces cerevisiae with 6 samples.

Results

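The inducer arm of a yeast meiosis time course was described here: 3 of the 6 libraries of the series, taken 6, 6.5 and 7 h after the cells entered sporulation medium. The cells were Saccharomyces cerevisiae SK1, a budding yeast strain that sporulates rapidly, with the genotype given as WT. An inducer labelled bEST had been added at 5 h, so the libraries stand 1, 1.5 and 2 h after the addition, and the series describes strong expression of the spliced form of HAC1 in these cells. The other 3 libraries received the ethanol vehicle at 5 h and were taken at the same hours. Each arm and hour has 1 library of poly(A)-selected RNA, so no value has a replicate. The labels do not name the construct that drives HAC1, and inducer without driven HAC1 was not analysed here, so effects of the compound and of HAC1 cannot be told apart. The members were chosen by column, not by any measured value, and 5669 of 6679 open reading frames (ORFs) whose mean over the 3 inducer libraries reached 20 were followed. The ORFs nearest that limit were YBL039C-A and NUD1 outside, with means of 20.0 and 19.9, and YGR190C and MKC7 inside, with means of 20.0 and 20.1.

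Hac1 activates transcription in the unfolded protein response of yeast. When unfolded proteins collect in the endoplasmic reticulum (ER), Ire1 cuts an intron out of HAC1 mRNA, which then can be translated, and Hac1 binds unfolded protein response elements (UPREs) upstream of genes for chaperones, protein degradation, glycosylation, lipid synthesis and vesicle traffic. Meiosis in yeast is a cascade in which Ime1 and the kinase Ime2 start the early genes of recombination, Ndt80 then starts the middle genes of the divisions and spore formation, and late genes build the spore wall.

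All values are the authors' RPKM values, that is, reads scaled to gene length and to library, and differences are on log2(value + 1). Recovered depths were 9.50, 21.7 and 9.86 megareads at 6, 6.5 and 7 h with inducer, against 6.02 to 13.3 megareads with vehicle. A single read in a gene of 1 kb was worth 0.328, 0.143 and 0.315 in the inducer libraries. Across ORFs, the 6.5 and 7 h inducer libraries had a Pearson r of 0.988 and the 6 and 6.5 h libraries 0.975, a description over ORFs that are not independent. Markers of meiosis were present throughout, with summed values over 10 genes of 27280, 22780 and 21130 with inducer and 27120 to 31630 with vehicle. SPS1 alone gave 9001 of the inducer sum at 6 h and 10880 at 7 h. All the other markers were lower at 7 h than at 6 h with inducer. With vehicle the same markers also were lower at 7 h, except NDT80 (2593 at 6 h and 2695 at 7 h). SPS1 with vehicle was 8862 at 6 h and 13600 at 7 h. In bulk RNA, fewer cells in a stage and less RNA per cell cannot be told apart.

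HAC1 itself stood at 28926, 48866 and 53257 at 6, 6.5 and 7 h, and at 127, 128 and 98.4 with vehicle. The inducer libraries therefore lay far above all vehicle libraries already at 6 h. Most of the later difference lay in the first step, 0.76 from 6 to 6.5 h and 0.12 from 6.5 to 7 h. HAC1 made up 0.648, 1.10 and 1.20% of recovered reads, and it ranked 6 among all ORFs by mean value.

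Sporulation genes stood among the most abundant transcripts with inducer. The 15 most abundant ORFs carried 21.0 to 23.9% of the summed value in the 3 libraries. At the top was CCW22 (YDR134C), named as a cell wall protein gene, with 138084, 156846 and 183597 in time order; it lies over the ORF YDR133C (123220, 146052 and 146398), and as strand counting is not stated the reads of such pairs cannot be told apart. SPS4, a sporulation-specific gene induced in the middle of the programme, had 110059, 140368 and 143951. ADY2, an acetate transporter gene, had 96131, 65479 and 78019. SPR2 and SPO19, both sporulation genes, had 45093, 50497 and 44861, and 43347, 41620 and 31733. None of these 15 ORFs differed 2-fold between any inducer libraries. The others were YDR278C, PIR5, YDR042C, the acyl-CoA-binding protein gene ACB1, YPR077C, SPO24, YPR078C and RGI2. SPS4 had 94147, 112223 and 162429 with vehicle, so that the levels of the arms overlapped, whereas those of HAC1 and ACB1 did not.

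Within the arm, more ORFs moved before 6.5 h than after it. Of the 5669 ORFs, 162 (2.86%) differed 2-fold or more from 6 to 6.5 h, 84 of them higher and 78 lower, but 36 (0.635%) did so from 6.5 to 7 h. With vehicle the same steps gave 66 and 44. Where ORFs with under 50 reads in their best library, no reference length or an overlapping annotated gene were left out, the inducer steps gave 133 and 12 and the vehicle steps 36 and 17, a filter chosen after the data were seen. The SD of the step over all ORFs was 0.42 and then 0.29 with inducer, against 0.31 and 0.31 with vehicle.

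From 6 to 7 h, 168 ORFs (2.96%) were 2-fold or more higher and 147 (2.59%) lower, against 18 (0.318%) and 86 (1.52%) with vehicle; 12 and 16 were shared by the arms. Scaling the libraries to their median ratio instead adds 0.118 to every difference, takes the median of all ORFs from -0.12 to -0.01, and gives 225 higher and 89 lower. Below, "rose" and "fell" mean a 2-fold difference between libraries somewhere in the arm, with no replicate behind it. An ORF counts as levelled where its second step was under 0.5 (1.41-fold). It counts as late where its first step was under 0.5, so a late course can begin before 6.5 h. By this rule 358 ORFs moved with inducer and 171 with vehicle, 65 in both.

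The moving ORFs fell into 8 courses. Of the 358, 102 rose and were level after 6.5 h and 105 fell and were level, together 207 or 3.65% of ORFs; with vehicle these courses held 10 and 25. Another 56 rose through both steps and 16 rose late, against 9 and 6 with vehicle. There were 26 that fell through both steps and 21 that fell late, against 11 and 61. The remaining 7 rose then fell and 25 fell then rose, against 14 and 35. A further 3749 ORFs (66.1%) stayed within 0.5 at every comparison.

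**Figure D1:**
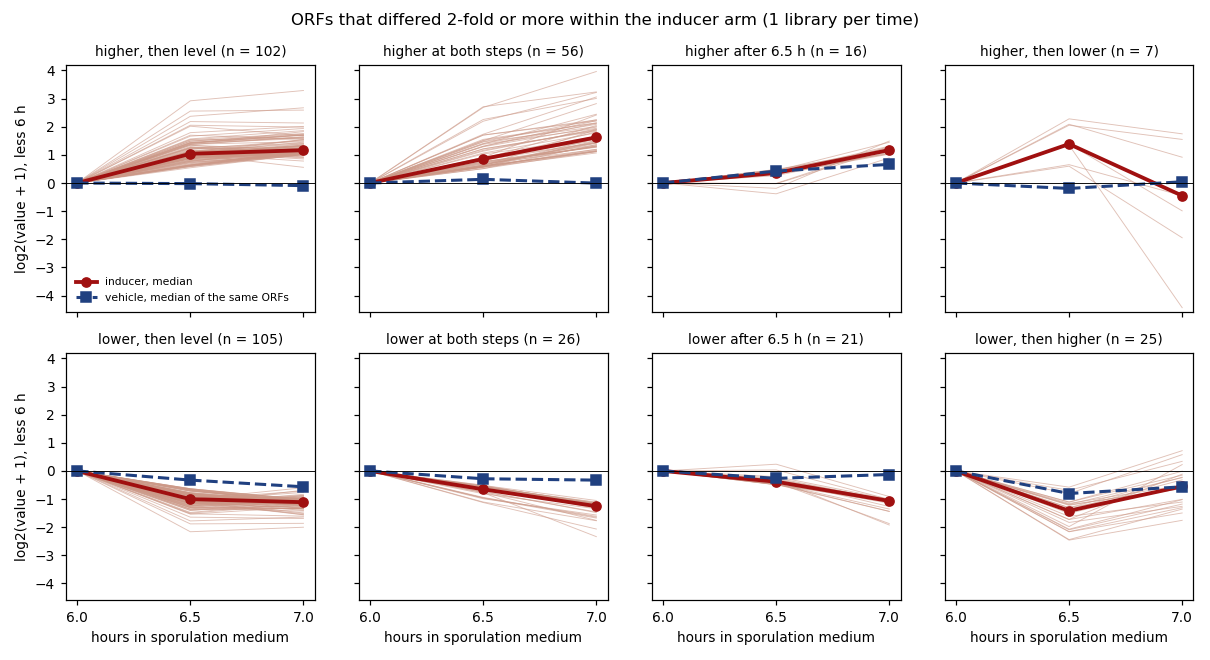
Each panel plots, for 1 course, the difference of log2(value + 1) from 6 h against hours in sporulation medium; thin lines are ORFs, red is their median with inducer and dashed blue the median of the same ORFs with vehicle. The 102 ORFs that rose and levelled bend at 6.5 h while their vehicle median stays near 0 (-0.09 at 7 h); the 25 that fell then rose have a vehicle median with a dip of the same shape.

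**Figure D2:**
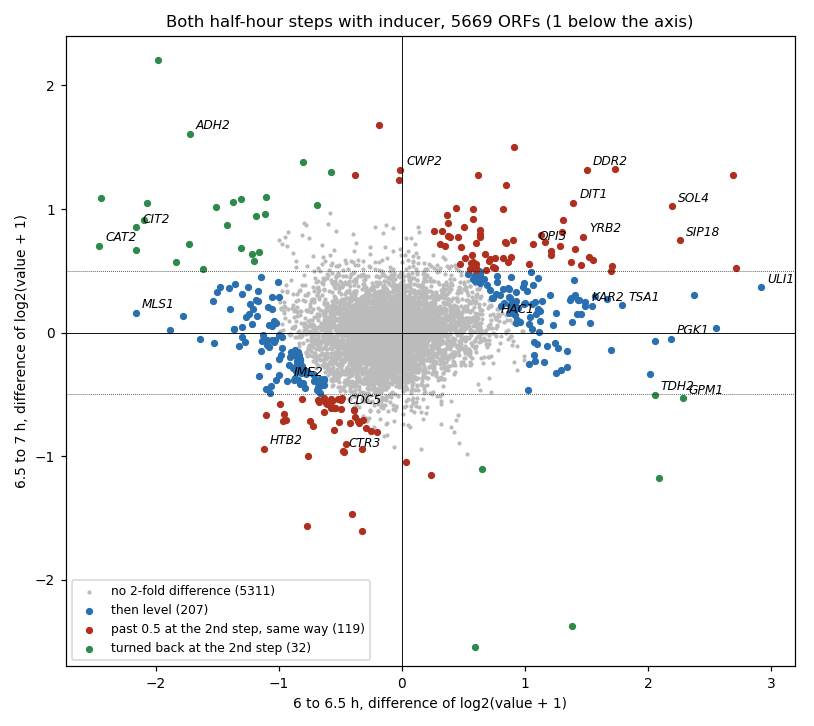
Each point is an ORF placed by its first step (horizontal) and second step (vertical), both as differences of log2(value + 1); dotted lines mark 0.5 either way. Points spread more along the horizontal axis (SD 0.42) than the vertical (SD 0.29); KAR2 and ULI1 lie right of centre and near level, SOL4 and DDR2 right and high, ADH2 and CAT2 left and high.

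Across the 3 hours, a linear slope was tested with limma-trend on all 6 libraries, with arm and hours within arm as terms and 2 residual degrees of freedom. With inducer, 318 ORFs had an adjusted p under 0.05, 163 (2.88%) higher and 155 (2.73%) lower per hour. Under median-ratio scaling the split was 232 and 59. The count rests on single libraries: it was 7 without the 6 h inducer library, 755 without that of 6.5 h and 258 without that of 7 h. The difference of the slopes, inducer less vehicle, passed for 0 ORFs (699 at an unadjusted p under 0.05; limma without trend gave 0 and 689). That count was 2, 119 and 102 without the 6, 6.5 and 7 h inducer library. With hour as a block, which pairs the arms by hour and leaves 1 residual degree of freedom, 95 passed, 83 (1.46%) higher and 12 (0.212%) lower, an alternative chosen after the data were seen.

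Of 17 genes for ER chaperones and folding, 3 rose and levelled, against 1.80% of all ORFs. Another 7 were level throughout, against 66.1% of all ORFs, 7 lay in between and 0 rose through both steps or late. At 7 h 13 of the 17 were higher than at 6 h, against 2189 of all 5669 ORFs. The median difference was 0.48 (all ORFs -0.12, vehicle -0.24). KAR2, the Hsp70 chaperone BiP of the ER lumen, went from 7190 at 6 h to 20196 and 23467, against 964, 1063 and 798 with vehicle, so that its steps were 1.49 and 0.22. The slope of KAR2 was 1.71 ± 0.34 (SE) per hour, adjusted p = 0.0388 by limma. EUG1, a protein disulfide isomerase, had 630, 1477 and 1544 (vehicle 165, 110 and 115). FPR2, an ER prolyl isomerase, had 2156, 5107 and 4828 (vehicle 560, 416 and 405). Both doubled in the first step and moved by under 0.1 in the second, and the arms did not overlap at any hour for either.

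Other chaperone genes stayed under 2-fold within the arm, among them the 4 given first here, which stood above vehicle from 6 h on. ERO1, the oxidase that drives disulfide bond formation, had 1533, 2246 and 2000 with inducer and 264, 243 and 223 with vehicle. JEM1, a J-protein partner of Kar2, had 211, 274 and 256 against 44.7, 39.5 and 39.2. PDI1, the main disulfide isomerase, had 3056, 4273 and 4264 against 1923, 1945 and 1308. SIL1, the nucleotide exchange factor of Kar2, had 1729, 3303 and 3069 against 255, 227 and 228. In all 4 the second step lay between -0.17 and 0.00, and every inducer library was above every vehicle library. SCJ1, another J-protein, was 437, 749 and 854, with a slope of 0.96 ± 0.22 and an adjusted p of 0.0475 by limma.

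**Figure D3:**
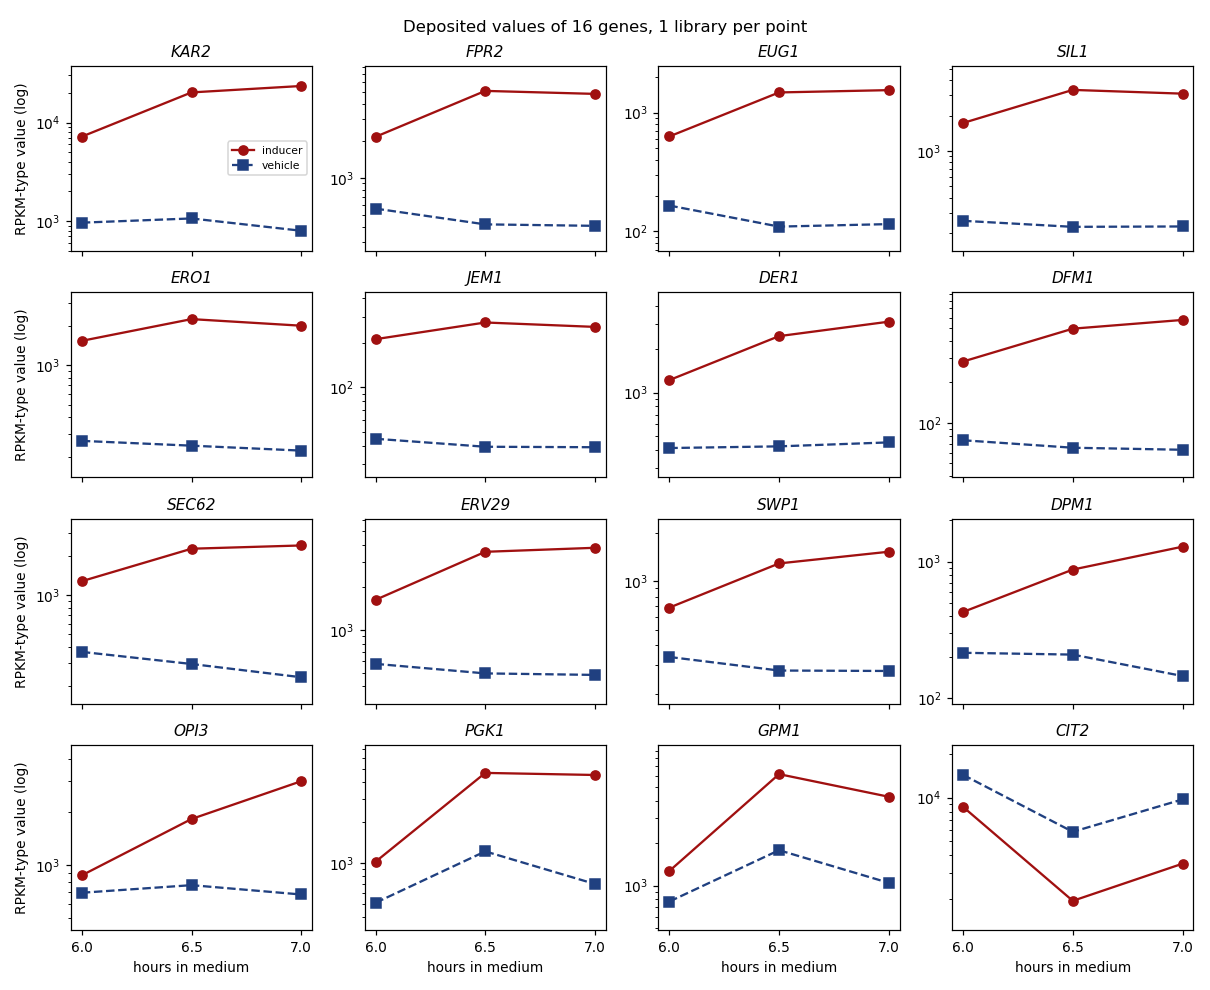
Deposited values of 16 genes (vertical, log scale) are plotted against hours in sporulation medium, with 1 library per point, red for inducer and dashed blue for vehicle. KAR2, FPR2, EUG1, ERV29 and PGK1 flatten after 6.5 h, DPM1 and OPI3 keep going up (1284 and 3008 at 7 h), and CIT2 dips at 6.5 h in both arms.

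Short sequences before the start codons are given for 6 genes. KAR2 is shown first because its promoter holds the letters CAGCGTG, the core of the classical element (UPRE-1), and the others because their courses differ although they share the letters TACGTG (UPRE-2 core). Sequences are from the RefSeq S288C reference R64, not SK1, read on the coding strand in the 500 bases before the start codon and on both strands, with the core in capitals; a core on the other strand reads CACGTA.
KAR2, chrX:381156-381185, plus strand: gaggaactggaCAGCGTGtcgaaaaagttg
ULI1, chrVI:206405-206434, minus strand: tctccggaggtaTACGTGttgcattttcaa
EUG1, chrIV:1478422-1478451, plus strand: ttcccttcaaaaCACGTAaacgatagttgg
ERO1, chrXIII:13296-13325, minus strand: aacgatacggagTACGTGtcataaaaactt
SIL1, chrXV:267614-267643, minus strand: atgtgaaaaggcCACGTAaatgatagagca
DPM1, chrXVI:900664-900693, plus strand: tttcagtattctTACGTGttcctaactcat
KAR2, ULI1 and EUG1 rose and levelled, ERO1 and SIL1 did not reach 2-fold within the arm, and DPM1 was still rising at 7 h.

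By course, UPRE-2 letters were found before 32 of 95 ORFs that rose and levelled (33.7%) and 7 of 48 that rose through both steps (14.6%), against 728 of all 5489 ORFs with a window (13.3%). UPRE-1 letters were found before 7 of the 95 (7.37%) and 0 of the 48, against 2.39% of all. Among the 23 ORFs with a window that fell through both steps, neither was found. A match is a description of these letters and not a site shown to be bound, and these shares were not tested.

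**Figure D4:**
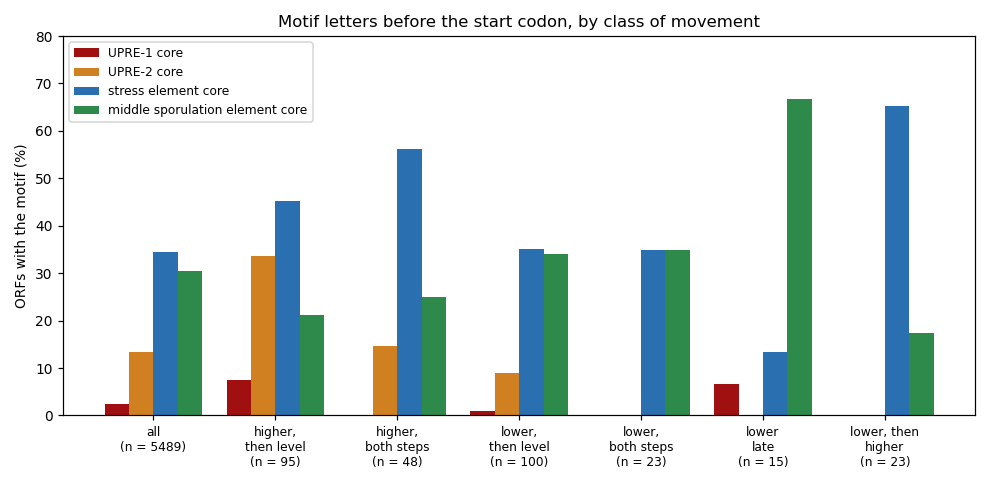
Bars give the percent of ORFs in each course whose 500 bases before the start codon in R64 hold each core on either strand; the first group is all 5489 ORFs with a window. The UPRE-2 bar is tallest in the ORFs that rose and levelled (33.7%), the stress element bar in those that fell then rose (65.2%), and the middle sporulation element bar in those that fell late (66.7%).

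Of 17 genes of ER-associated degradation, 3 rose and levelled, against 1.80% of all ORFs, 10 were level throughout and 4 lay in between. The median was 0.19 (vehicle -0.25). The median of the second step, 0.14, was no smaller than that of the first, 0.08. All 3 that rose had a slope that passed. DER1, which helps move misfolded proteins out of the ER, had 1221, 2470 and 3113 against 411, 422 and 450 with vehicle. Its slope was 1.35 ± 0.23, adjusted p = 0.0275 by limma. USA1, a scaffold of the Hrd1 ligase, had 92.3, 170 and 199, and DFM1, a Der1-like protein, 284, 496 and 576. HRD1 itself, the ubiquitin ligase, was at 579, 813 and 811, with a second step of 0.00.

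Some genes of sugar attachment rose. Of 28 N-glycosylation genes 2 rose, and of 28 O-mannosylation and GPI anchor genes 2 rose, against 2.96% of all ORFs. Under median-ratio scaling 4 and 3 were 2-fold higher, against 225 of all 5669 ORFs. The medians of -0.07 and -0.04 turn to 0.05 and 0.07 under that scaling. DPM1, which makes dolichol phosphate mannose, the sugar donor of several pathways, was still rising, at 427, 873 and 1284 (vehicle 214, 208 and 145). Its slope was 1.59 ± 0.23, adjusted p = 0.0161 by limma, and the difference from vehicle was 2.15 ± 0.32 with an adjusted p of 0.0776 by limma, which did not pass (0.00538 by limma with hour as a block). Over N-glycosylation, 4 slopes passed upward and 1 downward, against 2.88% and 2.73% of all ORFs. SWP1, a subunit of oligosaccharyltransferase, rose and levelled at 684, 1287 and 1521. GPI17, of the GPI transamidase, rose and levelled at 515, 1053 and 1106. GWT1, which acylates inositol in GPI synthesis, rose late by the rule, at 191, 266 and 392 with a second step of 0.56. It already was higher at 6.5 h than at 6 h. MCD4, an ethanolamine phosphate transferase of the same pathway, was at 874, 1245 and 1112 against 61.4, 53.3 and 55.7 and so stood far above vehicle with a second step of -0.16.

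Few genes of transport into and out of the ER reached 2-fold, no larger a share than among all ORFs (2.96% higher). In translocation and signal peptidase, 0 of 25 genes were 2-fold different, and the median of -0.03 turns to 0.09 under median-ratio scaling. SEC62, a translocation subunit, had 1277, 2266 and 2401 (vehicle 366, 296 and 234), and SEC61, the channel, 441, 726 and 800 (vehicle 183, 202 and 129). ER-Golgi traffic had a median of 0.32 over 44 genes (vehicle -0.29). Of the 44, 27 were higher at 7 h than at 6 h, against 2189 of all 5669 ORFs, and 1 rose and levelled. This was ERV29, a cargo receptor for soluble secretory proteins, with 1631, 3557 and 3796 against 576, 494 and 482. RET3, a coatomer subunit, was at 2174, 4295 and 4337, with steps of 0.98 and 0.01.

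Among the lipid genes, OPI3 was still moving at 7 h. OPI3, a phospholipid methyltransferase of phosphatidylcholine synthesis, rose through both steps, at 876, 1832 and 3008 against 697, 770 and 681 with vehicle. The arms did not overlap at any hour for OPI3, and its slope was 1.78 ± 0.21, adjusted p = 0.00895 by limma. Of the 22 genes of phospholipid and inositol synthesis, OPI3 had the single slope that passed, and 1 gene fell then rose. INO1, the first enzyme of inositol synthesis and a well known target of the pathway in growing cells, was at 2783, 1922 and 2795 (vehicle 3109, 2557 and 2808), so that the arms overlapped. Of 26 genes of ergosterol synthesis, 1 rose and 2 fell, against 2.96% and 2.59% of all ORFs. The median was -0.35 (vehicle -0.30). ERG20 rose and levelled at 351, 678 and 778. ERG25 fell and levelled at 2157, 1150 and 1004 (vehicle 3014, 2404 and 1742); under median-ratio scaling it and MVD1, the other that fell, stood at -0.98 and -0.97, under 2-fold. RTN1, a reticulon that bends the tubular ER, was at 524, 856 and 994 (vehicle 499, 433 and 311), and its slope of 0.92 ± 0.22 had an adjusted p of 0.0485 by limma.

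The strongest rise that levelled was that of ULI1, a gene named for induction by the unfolded protein response, at 599, 4549 and 5863 against 135, 105 and 119 with vehicle. Its steps were 2.92 and 0.37. TSA1, an abundant peroxiredoxin, had 6216, 21503 and 25068 against 2250, 2760 and 1964. THI20, of thiamine synthesis, had 880, 3656 and 3492 against 143, 140 and 134. DOG1, a sugar phosphatase, had 426, 1199 and 1424 against 69.2, 67.4 and 67.0. In none of these 4 did a vehicle library reach the lowest inducer library. The slope passed for ULI1, TSA1, THI20 and DOG1, at adjusted p of 0.0266, 0.0390, 0.0475 and 0.0276 by limma.

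Glycolysis genes moved in the first step. Of 25 genes, 9 rose and levelled and 2 rose then fell, against 1.80% and 0.12% of all ORFs. At 7 h 0 were 2-fold lower, and the median was 0.70 (vehicle -0.04, all ORFs -0.12). PGK1, phosphoglycerate kinase, had 1024, 4659 and 4497 against 509, 1222 and 701 with vehicle. ENO2, enolase, had 561, 1639 and 1899. GPM1, phosphoglycerate mutase, had 1269, 6171 and 4266 against 771, 1782 and 1046. Vehicle had the same peak at 6.5 h in PGK1 and GPM1, at a lower level. In the linear slope test 0 of the 25 passed (PGK1 adjusted p = 0.0822 by limma), against 2.88% higher and 2.73% lower among all ORFs. The reason was not tested. Reads of near-identical pairs such as ENO1 and ENO2 or TDH2 and TDH3 could be split between copies.

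Genes for the opposite direction, gluconeogenesis and the glyoxylate cycle, dipped. Of 27, 10 fell then rose and 4 fell and levelled, against 0.441% and 1.85% of all ORFs. The medians were -1.22 at the first step and -0.58 from 6 to 7 h (vehicle -0.56 from 6 to 7 h). CAT2, a carnitine acetyltransferase, had 1844, 334 and 545, CIT2, the peroxisomal citrate synthase, 8624, 1931 and 3490, and ADH2, the ethanol-consuming dehydrogenase, 4433, 1342 and 4097. MLS1, malate synthase, fell and levelled at 2180, 486 and 544. Vehicle also was lowest at 6.5 h for these 3 with a dip, at 3033, 1283 and 2084 for CAT2, at 14369, 5799 and 9716 for CIT2 and at 7952, 3411 and 4796 for ADH2. The 6.5 h dip was thus common to both arms.

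Genes still moving 2-fold from 6.5 to 7 h numbered 36, of which 24 had few reads, no reference length or an overlap. Of the other 12, 11 were higher at 7 h than at 6.5 h and 1 (YMR122C) was lower. They were SOL4, DDR2, DIT1, YDL218W, TKL2, CWP2, TIP1, ADH2, JEN1, GAP1 and DAL3. ADH2, JEN1, GAP1 and DAL3 were returning from a low at 6.5 h. YDL218W, a gene of the first 4, had 67.6, 228 and 571 with inducer and 80.4, 280 and 518 with vehicle, so its rise is shared. None of the genes on the ER and glycosylation lists is among the 36. As the 36 are 0.635% of all ORFs, lists of this size would hold few at that share. The absence was not tested.

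Of the 56 ORFs that rose through both steps (0.988% of all ORFs), 4 were on the list of 32 general stress and storage carbohydrate genes. The genes described next were taken from the 56 by size of change, whether or not they were on that list, and SOL4 is on it. SOL4, a phosphogluconolactonase of the pentose phosphate route, had 55.3, 257 and 524 against 47.6, 69.4 and 73.1 with vehicle. Its slope was 3.22 ± 0.31, adjusted p = 0.00566 by limma. SIP18, a hydrophilin of desiccation tolerance, had 3864, 18491 and 31047 against 1914, 2774 and 3512. YRB2, a nuclear export factor, had 865, 2403 and 4120 against 311, 275 and 240, and HUG1, an inhibitor of ribonucleotide reductase, 90.3, 224 and 397 against 73.5, 75.3 and 64.3. For SOL4, SIP18, YRB2 and HUG1 the inducer library was highest at 7 h and vehicle stayed below the 6.5 h inducer library.

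Other rises, such as those of DIT1 and DDR2, were common to the arms. DIT1, the first enzyme of dityrosine synthesis for the spore wall, had 263, 692 and 1435 with inducer and 200, 593 and 1407 with vehicle. DDR2, a stress gene, had 1259, 3571 and 8909 with inducer and 1879, 5954 and 9337 with vehicle. HSP12, a membrane-bound small heat shock protein gene, rose late with inducer, at 3334, 4256 and 6933. With vehicle it went up by under 2-fold, at 4305, 5849 and 6571. Of 32 general stress and storage carbohydrate genes, 6 rose and 0 fell, against 2.96% and 2.59% of all ORFs. The median was 0.34 (vehicle 0.08), and 7 slopes passed upward, against 2.88% of all ORFs. GSY1, glycogen synthase, rose and levelled by the rule with inducer, at 212, 440 and 618. It was still going up in the second step, which was just under the limit that separates levelled from moving. With vehicle GSY1 stayed at 156, 166 and 151.

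The stress element letters AGGGG (STRE) lay before 27 of the 48 ORFs with a window that rose through both steps (56.2%) and 15 of 23 that fell then rose (65.2%), against 34.5% of all 5489. SOL4 and SIP18 are shown as the named genes with the largest differences among those that rose through both steps, and PAI3, an inhibitor of proteinase A that rose and levelled, because R64 places it beside SIP18 in the other direction. The SIP18 and PAI3 windows cover the same bases on opposite strands but for 1 base at each end, and the letters read CCCCT on the other strand.
SOL4, chrVII:985834-985863, plus strand: taaaaaaatcccCCCCTaagcagcgaaaat
SIP18, chrXIII:610635-610664, plus strand: atgctttcggtaCCCCTttaagacaactat
PAI3, chrXIII:610634-610663, minus strand: tagttgtcttaaAGGGGtaccgaaagcatt
PAI3 had 1100, 2906 and 3906 against 757, 1104 and 961 with vehicle, with a second step of 0.43, just under the 0.5 that separates levelled from moving.

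Early meiotic genes were lower from the first step on. Of 37 genes for recombination and synapsis and their regulators, 7 were 2-fold lower at 7 h (4 under median-ratio scaling), and 0 rose. In this list 10 slopes passed downward. The shares of all ORFs were 2.59% for 2-fold lower and 2.73% for slopes downward. The median of the list was -0.83 (vehicle -0.19, all ORFs -0.12). IME1, the master regulator, had 1465, 718 and 689 against 2063, 1748 and 1745 with vehicle, and had levelled; its difference of -1.09 is -0.97, under 2-fold, with median-ratio scaling. IME2, the kinase, had 4708, 2468 and 1885 against 5293, 3571 and 4136, with an adjusted slope p of 0.0399 by limma. ECM11, of the synaptonemal complex, had 831, 482 and 354, and HOP2, of homologous pairing, 1963, 1269 and 877. IME2, ECM11 and HOP2 were lower than all 3 vehicle libraries at 6.5 and 7 h.

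Middle genes were lower mainly in the second step. Over 55 measured genes of the Ndt80 regulon and the divisions the median was -0.39 (vehicle 0.06), 4 were 2-fold lower, 0 rose and 6 slopes passed downward. Of all ORFs 2.59% were 2-fold lower, and under median-ratio scaling the 55 held 1 lower (SPO1) and 1 higher (SPS100), with CDC5, SPO21 and SPO75 at -0.99, -0.95 and -0.90. The step from 6.5 to 7 h had a median of -0.31, that from 6 to 6.5 h -0.09. CDC5, the polo kinase that drives exit from pachytene, had 1297, 924 and 602 against 1293, 1154 and 1225 with vehicle, and SPO21, a component of the meiotic outer plaque, 1088, 834 and 518 against 1089, 902 and 968. For both, the arms met at 6 h and were apart at 7 h. Their slopes had adjusted p of 0.0281 and 0.0388 by limma. NDT80 itself was 2509, 2316 and 1702 (vehicle 2593, 2468 and 2695), and SPS1, a kinase of spore wall formation, 9001, 10786 and 10878. CTR3, a copper transporter gene, led the named ORFs that fell late, at 1862, 1334 and 686 against 1788, 2402 and 2036.

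The letters CACAAA, the core of the middle sporulation element (MSE), lay before 10 of 15 ORFs with a window that fell late (66.7%), before 46 of the 55 middle genes (83.6%) and before 30.5% of all ORFs. CDC5 and SPO21 fell late by the rule, although both already were lower at 6.5 h than at 6 h, and the first step of CDC5 was just under 0.5. DIT1 rose in both arms, and all 3 are shown as the same letters in genes with opposite courses.
CDC5, chrXIII:271259-271288, minus strand: ttattttttgtaCACAAAaacattggcttt
SPO21, chrXV:145206-145235, plus strand: tttttttaatgtCACAAAaagaaaaattaa
DIT1, chrIV:1274249-1274278, plus strand: ccaggaacccctCACAAAtaagggaacata
Spore wall genes were mixed, with 3 of 27 that rose and 2 that fell from 6 to 7 h, against 2.96% and 2.59% of all ORFs. With vehicle 3 of the 27 were 2-fold higher and 0 lower, against 0.318% and 1.52% of all ORFs.

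Some histone genes were still falling. Of 10, 4 fell through both steps and 5 were 2-fold lower at 7 h, against 0.459% and 2.59% of all ORFs. The median was -0.97 (vehicle -0.70), and 5 slopes passed downward, against 2.73% of all ORFs. HTB2, a histone H2B gene, had 2266, 1040 and 541 against 3083, 1655 and 1690 with vehicle, and HHF1, a histone H4 gene, 8973, 4601 and 2810 against 9854, 6871 and 6055. Copies of each histone are nearly identical, so reads could be split between them. The fall went on after 6.5 h with inducer, with second steps of -0.94 and -0.71.

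Respiratory and translation genes also were lower. Of 44 nuclear genes of the respiratory chain, 3 fell, 2 of them through both steps, against 2.59% of all ORFs 2-fold lower. The median was -0.63 (vehicle -0.21). ATP20, a subunit of ATP synthase, had 1786, 1082 and 639 against 1872, 1903 and 1708, with an adjusted slope p of 0.0128 by limma. Cytosolic ribosomal protein genes had a median of -0.62 over 138, with 18 at 2-fold lower, but with vehicle the median was -0.93 and the count 52. The shares of all ORFs 2-fold lower were 2.59% with inducer and 1.52% with vehicle. GCN4, which encodes the transcription factor for amino acid synthesis, fell and levelled at 2893, 1425 and 1090 against 4431, 3935 and 2505. ASN1, an asparagine synthetase, rose through both steps at 154, 221 and 336 against 202, 152 and 129.

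**Figure D5:**
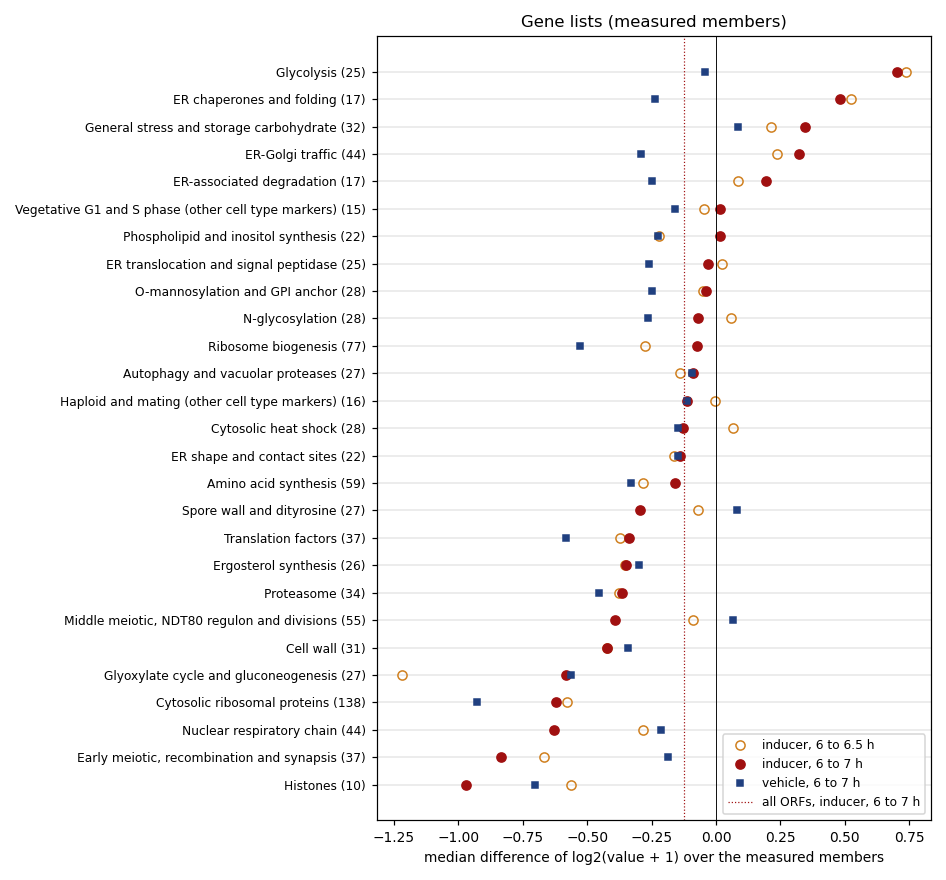
For each gene list (measured members in parentheses) the horizontal axis gives the median difference of log2(value + 1): open orange, inducer 6 to 6.5 h; red, inducer 6 to 7 h; blue squares, vehicle 6 to 7 h; the dotted line is all ORFs with inducer (-0.12). Glycolysis and ER chaperones have nearly all of their shift in the first step (0.74 and 0.53), and the middle meiotic genes little of theirs (-0.09 of -0.39).

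Markers of other cell types moved in part. Of 16 measured genes of haploid and mating cells, 3 rose, against 2.96% of all ORFs. They were MFA1, BAR1 and MFA2. MFA1, an a-factor gene, had 599, 1191 and 1573 against 510, 397 and 463 with vehicle, while STE2, the alpha-factor receptor, stayed at 25.7, 25.5 and 29.7 and AGA1, an agglutinin subunit, at 10.6, 8.05 and 11.8. STE3, the a-factor receptor, had 280, 241 and 194 (vehicle 251, 222 and 250.1). FUS1, of cell fusion, had 34.6, 63.9 and 65.0 (vehicle 32.5, 29.0 and 28.7). Summed over 6 fixed markers the value was 1025, 1695 and 2039 with inducer and 799 to 925 with vehicle, and none was at 0. Summed over 4 markers of vegetative cells it was 156 to 165 with inducer and 170 to 186 with vehicle. The part of such cells in the results was not tested.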

How the data were processed

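RPKM values of 6 libraries were deposited by the authors as a single table, with ORFs in rows. Per the labels' protocols these were directional, poly(A)-selected, 50 bp single-end libraries; the tools named in the submitters' processing notes are Bowtie2, SAMtools and TopHat. Their versions, the build, the annotation and strand counting: not given in the sources used here. Small values are steps of 1 read for a coding length shortened by 60 bp: 74.2 to 79.9% of them matched whole reads (tolerance 0.02 reads), but 9.87 to 12.7% without the 60 bp. The read numbers so recovered serve to describe depth, and no count model was fitted.

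Values were taken as log2(value + 1), which understates changes of low ORFs, and 1010 ORFs with a mean under 20 were left out. Slopes were fitted with limma-trend (limma 3.58.1, R 4.3.3) over all 5669 ORFs with Benjamini-Hochberg adjustment, after a test on simulated data. The p-values test for a slope, or for a difference of slopes. With 1 library per arm and hour, the spread behind them is the departure from the fitted line and not a spread between replicates. Alternatives were other pseudocounts, filters, scalings, trend settings and libraries left out. The members, the 27 gene lists and the rules were chosen with earlier results of these data known. Named were HAC1, fixed markers, the 15 most abundant ORFs, 8 per course by size, up to 4 per list and 5 each way by slope difference; any other gene was chosen after its values were seen. Of the ORF identifiers, 5994 were in the RefSeq table of R64 and 685 were not; 180 tested ORFs had no reference length and 137 overlapped another annotated gene. Sequences were read from R64 with its own annotation.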

Additional observations from a re-analysis of the deposited data

How the results depend on the processing

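The labels carry no replicate numbers; the arms share their hours, and pairing them by hour, an alternative chosen after seeing the data, gave 95 differences of slope (83 higher, 12 lower) in place of 0. The number of ORFs moving 2-fold from 6.5 to 7 h (36) was 93 with a mean of at least 5, 205 without a filter and 12 without ORFs of low reads, no reference length or an overlap, an alternative chosen after seeing the data. Without a filter, 287 ORFs were higher and 251 lower from 6 to 7 h; median-ratio scaling gave 89 lower. Slopes with inducer (318) passed for 34 ORFs without a filter, 120 by limma without trend and 7 to 755 with 1 inducer library left out. The split of 163 higher and 155 lower turned to 298 and 457 without the 6.5 h inducer library, 115 and 143 without that of 7 h, 210 and 238 on the inducer libraries alone and 195 and 238 under the added filter. Differences of slope (0) passed for 2 to 119 with 1 inducer library left out and for 6 ORFs under the added filter. The levelled count (207) stayed between 186 and 296. The cause of these shifts was not tested. Of the 36 ORFs, 11 had few reads.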
